A study of Homo sapiens with 4 samples.

Results

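Dense clusters of SAF-A pull-down peaks free of input peaks were examined in HCT116 cells, an established human colorectal carcinoma line with wild-type SAF-A. Peaks of the 2 SAF-A pull-downs that overlapped each other by at least 1 base on the same strand were merged. A site was such a merged span, covering all of its peaks, that was free of any peak of either input. A dense window was a stretch of 100 kb on 1 strand that held at least 10 such sites. Of 24643 windows with a site, 67 were dense, 17 of these belonged to 7 stretches left out here, and the other 50 are described. These 50 windows held 728 of the 35889 input-free sites, or 2.03%. The pull-down and input peaks themselves chose the windows, so their contrast in these windows is given as a description, with no test.

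There were 2 pull-down and 2 input samples of the same untreated cells, crosslinked with ultraviolet light at 254 nm and 4000 J per square metre. Per the labels, cleared lysate was split between input and immunoprecipitation with a SAF-A antibody, and RNA of both was recovered from a blot, cut around and above the height of SAF-A. Nothing says whether replicates came from separate cultures, so the spread between them may be technical. In replicates 1 and 2, the input lists were 29386 and 42256 peaks long and the pull-down lists 96061 and 111256. Read depth is unknown, because only peaks were used, and its part in these lengths was not tested.

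SAF-A, also called hnRNP U, is an abundant nuclear protein with a DNA-binding SAP domain and an RNA-binding RGG region. It is known for binding many nuclear RNAs, newly made transcripts among them, and for tying RNA to chromatin. CLIP-seq crosslinks a protein to the RNA it touches, and each peak keeps the strand of that RNA. A size-matched input shows the RNA that lies at the same height on the blot without the antibody. Peaks are positions on GRCh37, which differs from the build of the gene tables at hand. The windows are therefore named by position, and no gene or sequence is given for them.

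The 50 windows formed 38 separate stretches on 19 chromosomes, 26 windows on the plus and 24 on the minus strand. Of the stretches, 30 were 1 window long, 5 were 2 windows, 2 were 3 windows and 1 was 4 windows. A window held 10 to 24 sites, with a median of 14. Chromosomes 3 and 4 held the most windows, 6 each, chromosome 8 held 5, and chromosomes 10, 12 and 15 held 4 each. No window lay on chromosomes 2, 18, 19, 22 or Y or on the mitochondrial genome.

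The sites of the dense windows were wide. Their median width was 53 bases (quartiles 36 and 79), against 16 bases (12 and 33) for the 34537 input-free sites outside all dense windows. Of the 728 sites, 399 were at least 50 bases wide, or 54.8% (95% Wilson interval 51.2 to 58.4), against 20.8% (20.4 to 21.2) of the other sites. Sites under 20 bases, which made up 61.4% of the others, were 64 of 728, or 8.79%. Sites of the 17 left-out dense windows lay between, with a median of 35 bases and 29.0% (25.6 to 32.7) wide. Intervals cover counting error only, since neighbouring sites are not independent, and wider peaks also have more chance to overlap a peak of another library. A merged site is at least as wide as the widest of its peaks, so its width need not be shared by both pull-downs. The best-scoring peaks at the 728 sites had a median width of 41 bases in pull-down replicate 1 and 39 in replicate 2, against 13 in each at the sites outside dense windows.

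Width had no part in the choice of the windows beyond that, and it was compared over all peaks within each library. In pull-down replicate 1, 38.8% (36.4 to 41.2) of the 1569 peaks in the windows were wide, against 15.9% of the peaks elsewhere. In pull-down replicate 2 it was 32.9% (30.9 to 34.9) of 2045 peaks against 19.0%. In the inputs the wide share was 55.8% (48.9 to 62.6) of 197 peaks against 21.9% in replicate 1, and 59.6% (54.6 to 64.4) of 386 peaks against 26.3% in replicate 2. Wide peaks were thus more common in the windows in 4 of 4 libraries, inputs included, by a mean of 26.0 percentage points (SD 9.55, n = 4 libraries). The exact two-sided sign-flip permutation test gave p = 0.125, the smallest it allows with 4 libraries, so it cannot decide the question. The libraries are also not 4 replicates of 1 condition, and the pull-downs had a part in choosing the windows. Median peak width was 57 and 60 bases in the inputs and 41 and 37 bases in the pull-downs, against 14 to 16 bases elsewhere. The input peaks were spread unevenly over the windows. The window on chromosome 21 listed 38 and 42 of them, with median widths of 2 and 3 bases. The window on chromosome 4 from 187500001 to 187600000, minus, listed 23 and 29, with medians of 81 and 58 bases.

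The change in width came at a density below that of the windows described here. Where a window held a single input-free site, 17.9% of these sites were wide, and where it held 2 to 4, 21.7% were. In the 186 windows of 5 to 9 sites the share was 52.9%, in the 28 of 10 to 14 sites 58.5%, and in the 22 of 15 or more 51.8%. Wide sites are therefore not a property of the windows above the minimum alone. The left-out dense windows are not in these classes, and 29.0% of their sites were wide. Among pull-down peaks of replicates 1 and 2 the wide share was 45.5% and 44.7% in windows of 5 to 9 sites. It was lower above that, at 42.8% and 36.6% for 10 to 14 sites and at 35.7% and 29.9% for 15 or more. The input peaks of the same windows followed the same steps, at 21.5%, 25.6%, 50.0%, 69.5% and 46.1% in replicate 1 and at 26.2%, 30.8%, 55.2%, 63.9% and 55.7% in replicate 2.

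**Figure D1:**
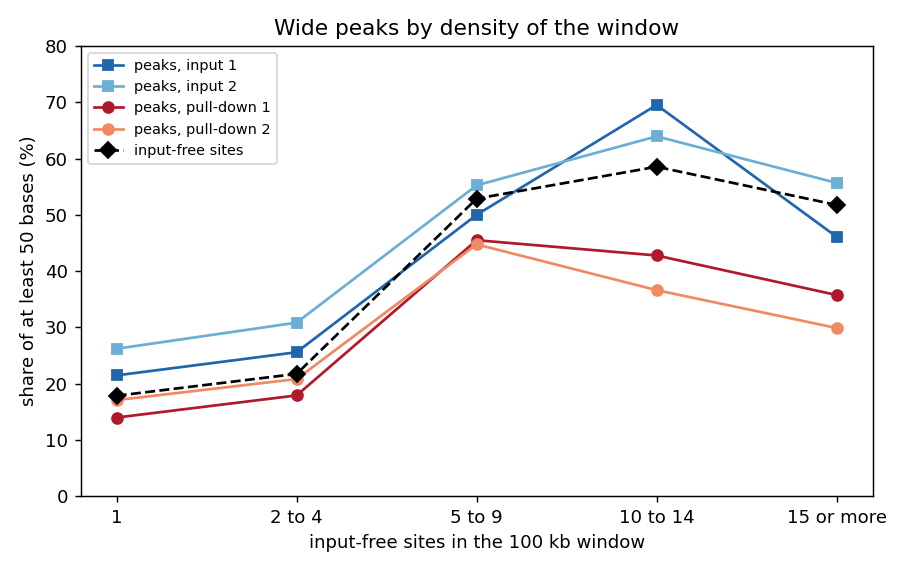
The share of peaks at least 50 bases wide (y axis, percent) is plotted for each library, and that of input-free sites as a dashed line, by the number of input-free sites in the 100 kb window (x axis), with the left-out dense windows omitted. All 5 lines rise between windows of 2 to 4 sites and windows of 5 to 9 sites, the line of input-free sites from 21.7% to 52.9%.

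The sites of the dense windows also scored low. The deposited score has no stated meaning and was used only to rank peaks within a list, with 0% as the best rank. The median score of the peaks at these sites was 13 in pull-down replicate 1 and 15 in replicate 2, against 16 and 18 at input-free sites outside dense windows. Their median rank was 73.5% and 62.7% of the way down the list, against 60.0% and 52.0%. Peaks of both pull-downs ranked in the better 50% at 72 of 728 sites, or 9.89% (7.93 to 12.3), against 28.2% (27.7 to 28.7) outside dense windows. The lower score was mainly that of sites under 50 bases. Among sites under 20 bases the median score was 13 and 12.5 in pull-down replicates 1 and 2, against 17 and 18 outside dense windows. Among sites of 20 to 49 bases the median score was 13 in each pull-down, against 18 and 20 outside dense windows, and among wide sites it was 14 and 16 against 15 and 16.

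All peaks in the windows also scored low, with a median score below that of the rest of the list in 4 of 4 libraries. It was 14 in each input against 17 elsewhere, and 13 in each pull-down against 19. The mean difference was -4.5 (SD 1.73, n = 4 libraries). The exact two-sided sign-flip permutation test gave p = 0.125, the smallest possible, so it cannot decide here either. The number of dense windows depended on the length of the lists. When every list was cut to the better-scoring 50%, 0 windows reached 10 sites. The same held with the 29386 best-scoring peaks of each list, which is all of input replicate 1. A site needs a peak in both pull-downs, so any shorter lists leave fewer sites, and this count is not a measure of score. When 50% of each peak had to be shared in place of 1 base, 32 windows met the minimum.

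Most peaks lay on the strand of the sites, in the inputs as well as in the pull-downs. Summed over the 50 windows, the site strand held 1569 and 2045 pull-down peaks and the opposite strand 92 and 99. The site strand took 94.5% (95% Wilson interval 93.3 to 95.5) and 95.4% (94.4 to 96.2) of pull-down peaks. In the inputs, 197 and 386 peaks lay on the site strand and 25 and 38 on the opposite strand, so that the site strand took 88.7% (83.9 to 92.3) and 91.0% (87.9 to 93.4). In 5 windows the mean input share was above the mean pull-down share. In the other 45 windows the site strand took 83.1% (75.7 to 88.6) and 88.7% (84.5 to 91.8) of input peaks, and 94.6% and 95.4% of pull-down peaks. The choice of the windows favours the site strand in the pull-downs. It does not ask for input peaks on that strand.

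The opposite strand had no part in the choice, and pull-down and input were compared there. Of every 10000 peaks of a list it held 9.24 ± 0.48 for pull-downs and 8.75 ± 0.34 for inputs (SD, n = 2 each). The libraries overlapped, at 9.58 and 8.90 for pull-downs and 8.51 and 8.99 for inputs. The difference of 0.49 was about the size of the spread between replicates, with a two-sided exact permutation p of 0.667, where the smallest that 2 against 2 samples allow is 0.33. The difference depended on which peaks were compared. It was 4.08 in lists of equal length (12.8 for pull-downs and 8.68 for inputs), -0.37 in the better-scoring 50% of each list and -1.31 among wide peaks alone. It was 0.15 without pull-down replicate 1, 0.83 without pull-down replicate 2 and 0.25 without input replicate 1. This sum was added after the windows' peaks had been seen. Lists of equal length keep all of input replicate 1 but only the best-scoring peaks of the other libraries.

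**Figure D2:**
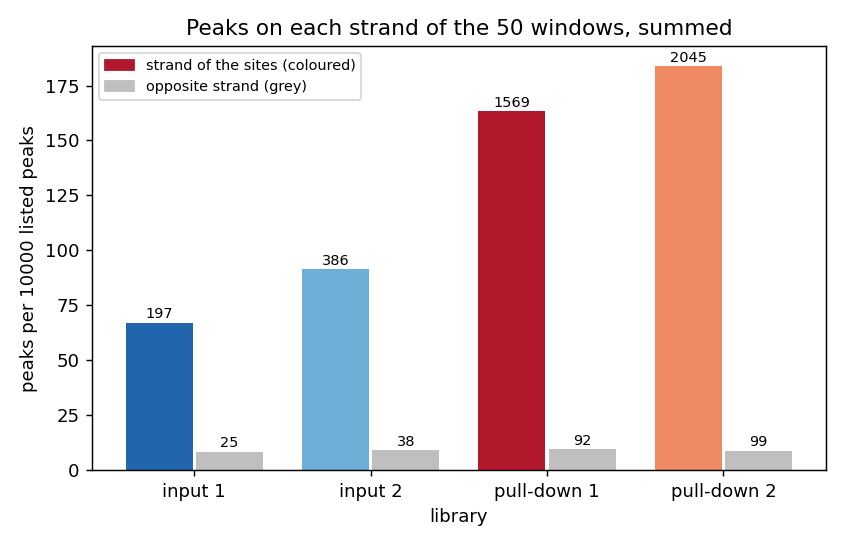
Bars give the peaks in the 50 windows per 10000 listed peaks (y axis) in each library (x axis), with the site strand in colour and the opposite strand in grey, and the number of peaks above each bar. The opposite strand lies between 8.51 and 9.58 in all 4 libraries, while the site strand reaches 163 and 184 for pull-downs and 67.0 and 91.3 for inputs.

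Few windows could be tested on the opposite strand one by one. Input-free sites there numbered 0 in 26 windows and at most 2 in the others, and 7 windows had 0 opposite-strand peaks in all 4 libraries. No opposite strand reached the planned mean of 5 peaks over the 4 libraries. At a mean of at least 2 peaks, 10 opposite strands could be tested in limma, and 1 was called at a Benjamini-Hochberg adjusted p of 0.05, with 0 higher in the pull-downs and 1 lower. Over all 11656 windows tested at that minimum, 4.13% were called higher and 20.4% lower. The 10 strands are too few to compare their share called with that background. The called strand was the plus strand of chromosome 1 from 8000001 to 8100000, where each input listed 3 peaks and the pull-downs 2 and 3. The fitted log2 difference was -1.80, its SE was 0.45 and limma's adjusted p was 0.00075. A difference resting on 2 or 3 peaks a library carries a wide counting error.

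On the site strand, the pull-down lists held a median of 30 and 37 peaks a window (range 12 to 71 and 21 to 83) and the input lists a median of 2 and 6 (range 0 to 38 and 0 to 42). Per 10000 listed peaks, the group mean over a window ranged from 1.57 to 7.11 in the pull-downs and from 0.118 to 11.4 in the inputs. Both pull-downs lay above both inputs in 43 of 50 windows, against 29.7% of all 1030 windows with a mean of at least 5 peaks. In limma, whose calls are used here only as a background, 14.9% of the 1030 windows were called higher in the pull-downs and 39.8% lower. The 50 windows were chosen on this contrast, so no calls are given for them and nothing is read from the 43. The median log2 ratio was -0.58 over all 1030 windows and 1.68 over the 50. With each library centred on its median window, the 1030 windows gave 276 higher and 273 lower calls in place of 153 and 410.

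The windows differed widely in how much input they held. In 12 windows an input listed 0 peaks, but in none did both. The ratio of the mean pull-down share to the mean input share had a median of 3.30 and was at least 4 in 21 windows, 1 to 4 in 24 and below 1 in 5. The 21 windows with a ratio of at least 4 held 292 sites, of which 66.4% were wide. In the 24 windows with a ratio of 1 to 4 the wide share was 48.3% of 360 sites, and in the 5 windows with a ratio below 1 it was 40.8% of 76. Across the 50 windows the ratio and the wide share were weakly related (Pearson r = 0.40, Spearman rho = 0.39), as a description over windows that share the same 4 libraries.

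**Figure D3:**
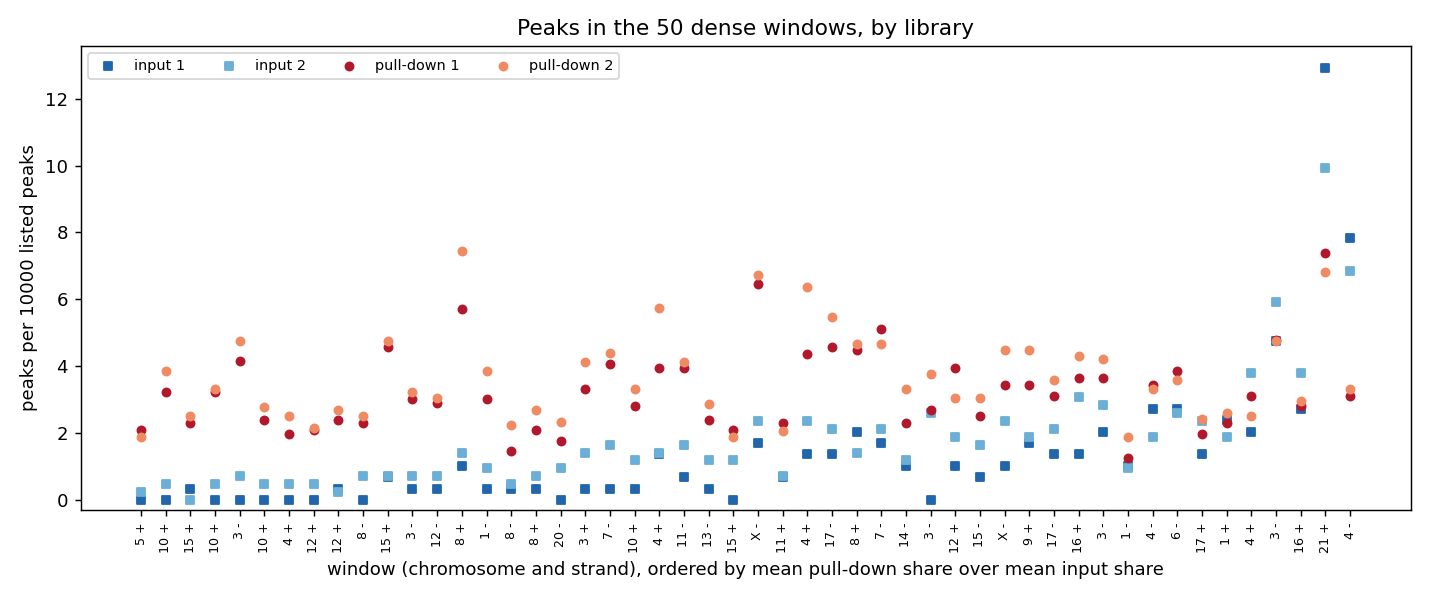
Peaks per 10000 listed peaks (y axis) are plotted for each of the 50 windows (x axis, by chromosome and strand) in the 2 pull-downs (circles) and the 2 inputs (squares), ordered by the ratio of the group means. The pull-downs stand above both inputs in 43 windows, and the 5 windows at the right have the higher mean in the inputs.

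Sites of both pull-downs that also met an input peak ran through the same windows. There were 220 of them beside the 728 input-free sites, so that 76.8% of the 948 shared sites in the windows were input-free, against 56.7% of shared sites elsewhere, as the choice favours. A window held 0 to 25 such sites, with a median of 3. Of the input peaks on the site strand, 68.0% (61.2 to 74.1) and 68.7% (63.9 to 73.1) in replicates 1 and 2 overlapped a pull-down peak, against 71.0% and 67.7% of input peaks elsewhere. The inputs' own peaks were found again less evenly. Of those of input replicate 1, 75.6% (69.2 to 81.1) were listed in replicate 2, against 77.7% elsewhere. Of those of input replicate 2, 38.3% (33.6 to 43.3) were listed in replicate 1, against 54.3% (53.8 to 54.8) elsewhere. Pull-down peaks on the site strand were found again less often than elsewhere, although the choice asks for sites listed in both pull-downs. Pull-down replicate 2 listed 60.7% of those of replicate 1, against 65.7% elsewhere. Pull-down replicate 1 listed 46.8% of those of replicate 2, against 56.8% elsewhere.

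Most windows were filled over much of their length, and a few held their sites in a short piece. Divided into 10 bins of 10 kb, a window had sites in 2 to 10 bins, with a median of 6. The median distance between neighbouring sites of a window ranged from 314 to 6380 bases, with a median of 2728. Sites lay in 2 to 4 bins in 13 windows, in 5 to 7 bins in 29, and in 8 to 10 bins in 8. The wide share was 39.2% of 176 sites in the first kind, 59.4% of 411 in the second and 61.0% of 141 in the third. The most sites in 1 bin and the wide share of a window were inversely related over the 50 windows (Pearson r = -0.54, Spearman rho = -0.39). Without the window on chromosome 21, the values were -0.48 and -0.35 over 49.

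Most windows beside the stretches held few sites. The 76 windows that flank the 38 stretches held a median of 1 site, 18 of them held 0 sites and 16 held at least 5. The rule keeps a flank below 10 sites unless it is among those left out, which was so for 1 flank. When windows of at least 5 sites were joined, 15 of the 38 stretches grew longer, the longest run reaching 600 kb.

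The longest and fullest stretch lay on chromosome 10 (114300001 to 114700000, plus). It ran directly into a left-out dense stretch, whose first window held 28 sites. Its 4 windows held 13, 14, 16 and 14 sites, 57 in all, of which 38 were wide. Pull-down peaks there numbered 112 and 148 against 1 and 11 from input, which is 12.5 ± 1.16 against 1.47 ± 1.60 of every 10000 in a list (SD, n = 2 each, as in the stretches that follow). Sites lay in 26 of 40 bins of 10 kb, and 7 further shared sites met an input peak. The best-ranked site covered 118 bases, from 114699887 to 114700004, at the very end of the stretch, with scores of 46 and 53.

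On chromosome 4 (30800001 to 31100000, plus), 3 windows held 11, 18 and 16 sites. The pull-downs listed 99 and 163 peaks there and the inputs 8 and 18, or 12.5 ± 3.07 against 3.49 ± 1.09 per 10000. Here the pull-downs differed from each other more than in the other stretches described in full, at 10.3 and 14.7 per 10000, and both stayed above the inputs. Site width had a median of 63 bases, and the 45 sites reached 24 of 30 bins, the last window having a site in each of its 10 bins. The flanks held 0 and 2 sites. The best-ranked site was a narrow one of 22 bases, from 31068965 to 31068986, with scores of 40 and 43.

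The stretch on chromosome 7 (130500001 to 130700000, minus) was more compact. Its windows held 19 and 23 sites in 9 of 20 bins. In the first window, 13 sites lay between 130580539 and 130589454, with a median width of 24 bases and 0 wide ones, whereas 14 of the 23 sites of the second window were wide. The pull-downs listed 88 and 101 peaks and the inputs 6 and 16, or 9.12 ± 0.06 against 2.91 ± 1.23 per 10000. Both pull-downs were above both inputs. The best-ranked site lay from 130617547 to 130617660, with scores of 22 and 46.

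Wide sites dominated the next stretches. On chromosome 12 (79300001 to 79600000, plus), 26 of 36 sites were wide, and the 3 windows held 10, 16 and 10 sites. The pull-downs listed 81 and 88 peaks and the inputs 4 and 11, or 8.17 ± 0.37 against 1.98 ± 0.88 per 10000. The outer windows were only just inside the minimum, and the flanks held 5 and 4 sites. On chromosome 3 (114200001 to 114400000, minus), 24 of 34 sites were wide. This stretch listed 69 and 89 pull-down peaks against 1 and 6 input peaks, or 7.59 ± 0.58 against 0.88 ± 0.76 per 10000. It had 6 sites in each flank and grew to 500 kb when windows of at least 5 sites were joined.

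The minus strand of chromosome 4 from 187500001 to 187700000 ran the other way in its first window. That window held 13 input-free sites, 11 of them wide, yet listed 23 and 29 input peaks against 30 and 37 pull-down peaks, or 7.34 ± 0.68 in the inputs and 3.22 ± 0.14 in the pull-downs per 10000. The second window held 17 sites, with 8 input peaks in each replicate and 33 and 37 pull-down peaks, or 2.31 ± 0.59 against 3.38 ± 0.08. The order of the groups thus changed between neighbouring windows. Both windows met the same rule, because it counts input-free sites and sets no limit on input peaks elsewhere in the window. Of shared sites with an input peak there were 4 in the first window and 6 in the second.

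On chromosome 15 (67300001 to 67500000, plus), the inputs were nearly empty. The pull-downs listed 66 and 81 peaks and the inputs 3 in each replicate, or 7.08 ± 0.29 against 0.87 ± 0.22 per 10000. The 27 sites, 16 in the first window and 11 in the second, were bounded by flanks of 1 and 0 sites. The site from 67380728 to 67380802 had scores of 28 and 90, and 90 was the highest score of any of the 728 sites in pull-down replicate 2. On chromosome 3 (104000001 to 104200000, minus), sites were narrower, with 5 of 25 wide and a median of 38 bases. The inputs differed there, with 6 and 23 peaks, or 3.74 ± 2.41 per 10000, against 61 and 89 from pull-down, or 7.17 ± 1.17, and 15 further shared sites met an input peak.

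The fullest single windows were on chromosomes 8 and 21, with 24 sites each. On chromosome 8 (129000001 to 129100000, plus), sites reached 9 of 10 bins with at most 3 in any bin, and 15 of the 24 were wide. The pull-downs listed 55 and 83 peaks and the inputs 3 and 6, or 6.59 ± 1.23 against 1.22 ± 0.28 per 10000. The window before it held 8 sites, and the one before that, from 128800001, was itself dense with 22 sites, 43 and 52 pull-down peaks and 6 input peaks in each replicate. Both dense windows had the pull-downs above the inputs.

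Chromosome 21 held 1 window (9800001 to 9900000, plus), which stood apart in nearly every measure. Its sites lay in 2 of 10 bins: 15 within 3554 bases (9825919 to 9829472), with a median width of 7 bases, and 9 within 9463 bases (9850215 to 9859677), with a median of 42 bases. Its inputs listed 38 and 42 peaks and its pull-downs 71 and 76, or 11.4 ± 2.12 against 7.11 ± 0.40 per 10000. It had the highest mean share of both kinds of library among the 50 windows, and 25 further shared sites met an input peak, more than in any other of them. Its site from 9827456 to 9827470 had scores of 57 and 80. It was the only one of the 50 windows whose median site width, 14 bases, was not above the 16 bases of the sites outside dense windows, and both flanks held 0 sites.

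**Figure D4:**
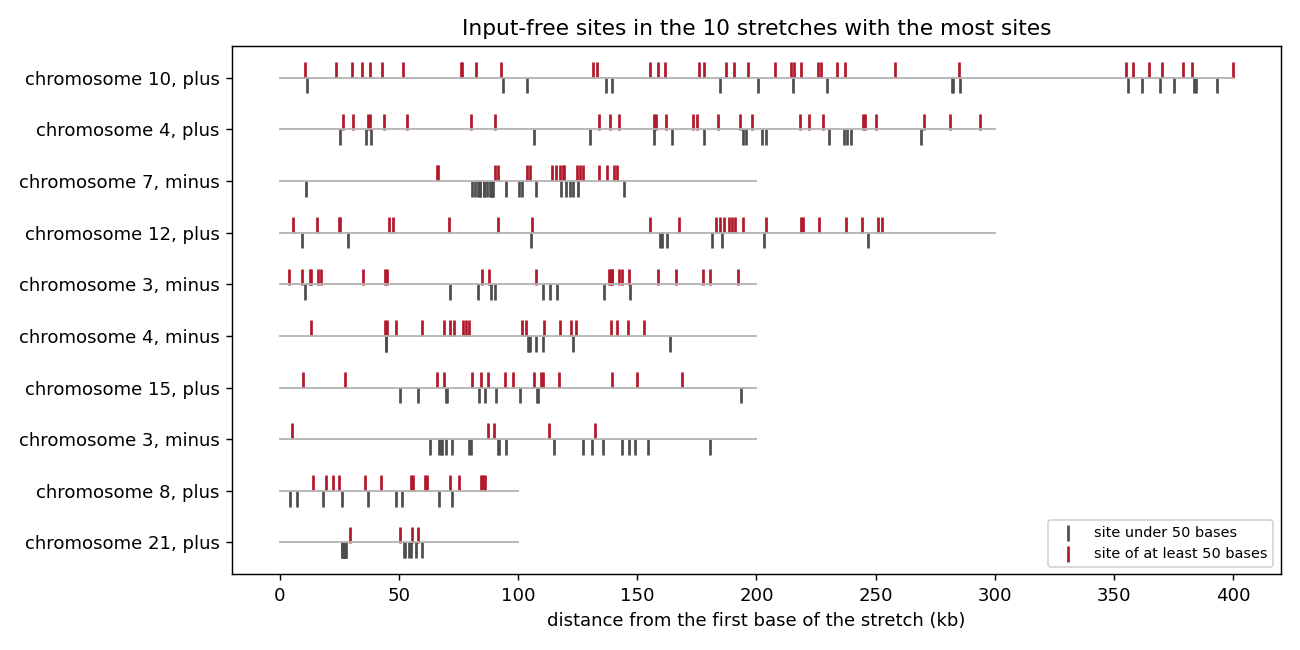
Each line is 1 of the 10 stretches with the most sites, drawn from its first base (x axis, distance in kb), and each tick is an input-free site, red above the line for sites of at least 50 bases and grey below it for narrower ones. Wide sites are spread along the stretch on chromosome 10, with 38 of 57, while the window on chromosome 21 has 20 of its 24 sites below the line, in 2 short groups.

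The other 28 windows, 1 of them the window on chromosome 8 just named, held 384 sites. Besides that window, the fullest were on chromosome X (45600001 to 45700000, minus), with 22 sites, on chromosome 11 (122000001 to 122100000, minus), with 20, and on chromosome 6 (159200001 to 159300000, minus), with 19. The window on chromosome X had 62 and 75 peaks from pull-down and 5 and 10 from input, with sites in 9 of 10 bins. That on chromosome 11 listed 38 and 46 against 2 and 7, and that on chromosome 6 listed 37 and 40 against 8 and 11. In all 3 the pull-down share was above the input share in each replicate. A second window on chromosome X (73400001 to 73500000, minus), held 13 sites and 9 further shared sites with an input peak.

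The ratio of mean shares was 16.8 on chromosome 5 (103500001 to 103600000, plus), where 20 and 21 peaks came from pull-down and 0 and 1 from input, so that the ratio rests on a single input peak. The 11 sites of that window were the widest of any of the 50 windows, with a median of 118 bases and 10 of 11 at least 50 bases wide, and its best-ranked site had scores of 12 and 31. Sites were also wide on chromosome 8 (90300001 to 90400000, minus, 11 of 14 wide), on chromosome 15 (44400001 to 44500000, minus, 10 of 11) and on chromosome 3 (152000001 to 152100000, plus, 12 of 16). These 3 windows listed 22 and 28, 24 and 34, and 32 and 46 pull-down peaks, against 0 and 3, 2 and 7, and 1 and 6 input peaks.

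Compact groups of narrower sites occurred on chromosomes 13 and 15. On chromosome 13 (111500001 to 111600000, minus), 8 of 15 sites lay within 3844 bases (111546149 to 111549992), and 3 of the 15 were wide. On chromosome 15 (50600001 to 50700000, plus), 10 of 13 sites lay within 9534 bases, from 50650097 to 50659630, and 2 of the 13 were wide. None of its shared sites met an input peak, although input replicate 2 listed 5 peaks in the window and replicate 1 listed 0. The pull-downs listed 23 and 32 peaks in the window on chromosome 13 and 20 and 21 in that on chromosome 15.

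Besides those on chromosomes 4 and 21, 3 windows had a mean input share above the mean pull-down share. They lay on chromosome 3 (98500001 to 98600000, minus, 15 sites), on chromosome 4 (75200001 to 75300000, plus, 13 sites) and on chromosome 16 (69400001 to 69500000, plus, 11 sites). Their ratios of pull-down to input share were 0.89, 0.97 and 0.89, and in each the libraries of the 2 groups overlapped. On chromosome 16 a second window of the same strand, from 69600001 to 69700000, held 17 sites, 13 of them wide, with a ratio of 1.79. Without the 5 windows of higher mean input share, the remaining 45 held 652 sites, of which 56.4% were wide.

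On chromosome 17, the minus strand held 16 sites from 70500001 to 70600000 and 11 from 56000001 to 56100000, and the plus strand held 10 from 34100001 to 34200000. The first of these had 44 and 61 peaks from pull-down and 4 and 9 from input, while in the last, with 19 and 27 against 4 and 10, the shares of the groups overlapped. On chromosome 1 (172800001 to 172900000, minus) there were 15 sites, with 29 and 43 peaks from pull-down and 1 and 4 from input. On chromosome 9 (21800001 to 21900000, plus) there were 14, with 33 and 50 against 5 and 8. Further windows of 11 or 12 sites lay on chromosome 1 (68800001 to 68900000, plus), chromosome 8 (94800001 to 94900000, plus), chromosome 11 (35100001 to 35200000, plus) and chromosome 12 (116600001 to 116700000, minus). In the last-named window of chromosome 1 the libraries of the 2 groups overlapped, and in the other 3 both pull-downs were above both inputs.

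The minimum of 10 sites fell within a continuous range. Of the 50 windows 7 held 10 sites, and 11 windows held 9, all but 1 of them outside the left-out stretches. The first with 10 in genome order were on chromosome 1 (8000001 to 8100000, minus), with 12 and 21 pull-down and 3 and 4 input peaks, on chromosome 8 (106800001 to 106900000, minus), with 14 and 25 against 1 and 2, and on chromosome 12 (79300001 to 79400000, plus), with 20 and 24 against 0 and 2. The others with 10 were the last window of the stretch on chromosome 12, the window on chromosome 17 from 34100001 and windows on the minus strands of chromosome 14 (21700001 to 21800000) and chromosome 20 (30200001 to 30300000). The first with 9 were on chromosome 1 (35600001 to 35700000, minus), with 19 and 20 against 6 and 6, on chromosome 2 (182700001 to 182800000, plus), with 18 and 34 against 11 and 21, and on chromosome 3 (114000001 to 114100000, minus), with 18 and 25 against 1 and 5. The values on both sides of the minimum overlapped.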

How the data were processed

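The data were 4 peak lists, 1 for each sample, so replicates were not pooled. STAR, featureCounts and GRCh38 are the names in the submitters' processing notes, without versions; which program called the peaks is not stated in the sources used here. Some positions lie past GRCh38 chromosome ends, so they were read as GRCh37 and are printed 1-based. Each peak's score, as deposited, is whole, at least 10 and of unstated meaning. Gene and promoter tables on another build were not used.

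Midpoints placed sites and peaks in 100 kb windows. Adjoining dense windows were joined, the 10 stretches with the most sites are given in full, and the best-ranked site of each has the lowest mean score rank. For windows averaging at least 5 peaks, limma 3.58.1 (R 4.3.3; lmFit, eBayes with trend) was fitted to log2 values of the deposited lists, computed here as the count plus 0.5 per 10000 peaks of a list, with Benjamini-Hochberg adjustment at 0.05. The fit was tested on simulated data, with Poisson counts and with replicates that vary less. It recovered most but not all changed windows with Poisson counts, so a window not called may still differ. Its calls serve only as a background. Single values were compared with exact permutation tests (SciPy 1.17.1), and shares carry 95% Wilson intervals.

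The windows and lists were chosen with earlier results of these data known. Several comparisons were added after values had been seen: widths and scores within libraries, the summed opposite strand, the classes of windows by density, bins and ratio with their correlations, the windows with most sites in 1 bin, the best-ranked sites, and the set without the 5 windows of higher mean input share.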

Additional observations from a re-analysis of the deposited data

How the results depend on the processing

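The 50 windows and their 728 sites became 32 and 446 with an overlap of 50% of both peaks, 0 and 0 in lists of equal length and in the better-scoring 50%, 22 and 400 at a minimum of 15 sites, 18 and 238 with peaks under 50 bases alone, and 1 and 10 with wider peaks alone. Without 1 library they ranged from 51 to 355 windows and from 750 to 6152 sites. Most came from leaving out a pull-down, since sites then need no second one (172 windows without replicate 2 and 355 without replicate 1). The median width of 53 bases was 43 with 50% overlap, 55 at a minimum of 8 sites, 51 at 15 and 55 with windows moved by 50 kb, and 47 to 54 without 1 library. The wide share of 54.8% was 42.2% with 50% overlap and 47.1% to 56.1% without 1 library. The difference on the opposite strand, 0.49 per 10000, was 4.08 in lists of equal length, 0.73 among narrow peaks, -0.37 in the better-scoring 50%, -1.31 among wide peaks and 0.15 to 0.83 without 1 library, and the cause was not tested.

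Of all windows, 563 were called; the count was 146 at a mean of 10 peaks, 2862 at 2, 96 in lists of equal length, 81 in the better-scoring 50%, 148 with narrow and 167 with wide peaks alone, and 342 to 493 without 1 library. On the opposite strand it was 0, or 1 at a mean of 2 peaks, and 0 to 0 without 1 library. With the replicate number as a block, 608 were called; the deviations of same-numbered samples correlated at r = 0.077 over 1030 windows. Lysates were divided between input and pull-down, per the labels, but no label ties a number to a lysate, so whether the numbers pair the samples is not known. All counts are of peaks, and read depth is unknown.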
